A study of Rattus norvegicus with 80 samples.

Results

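Mammary tumors of a rat line named PS were compared with whole mammary pads of the same line, in RNA sequencing counts per gene. The members were chosen by their labels: the 9 libraries labelled as tumors with genotype PS and the 6 labelled as whole mammary pads with genotype PS, 15 of the 80 libraries in the table. PS is one of 3 rat lines with mutations in Nf1, and the others are named IF and IFPS; the sources used here do not spell out the alleles, and give no age, sex, treatment or count of animals for any group. The pads fall into 2 sets by the numbers in their titles, pads 10 to 12 and pads 19 to 21, and the labels do not say what separates the sets. IF libraries (5 tumors, 3 pads) and IFPS libraries (9 tumors, 6 pads) served for comparison. Wildtype rats, without an Nf1 mutation by the series' description, gave 6 pads to a fit of all pads and 3 libraries of each cell type for other gene sets. The pads, which the series describes as normal tissue, come from the same mutated line as the tumors set against them. The labels do not say whether libraries of 1 group came from separate animals, so p-values measure only the spread between these samples.

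Nf1 encodes neurofibromin, a protein that switches Ras off by speeding its hydrolysis of GTP, and loss of neurofibromin leaves Ras and the kinases below it more active. The mammary pad is a fat depot threaded by epithelial ducts, with fibroblasts, vessels and immune cells between them. Mammary tumors arise from the epithelium, and a bulk library of tumor or pad mixes the RNA of all cells present. In such bulk samples, fewer cells of a type and less RNA per cell cannot be told apart.

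The deposited table names genes by Ensembl rat identifiers alone, and 0 of its 32883 identifiers matched a symbol in the reference tables at hand. The level of Nf1, named marker genes of cell types and named pathways were therefore not analysed here. Genes were instead described by where they were read in the normal PS cells of the same series: cultured mammary epithelial cells (MECs), mature adipocytes and cultured fibroblasts, with 3 libraries each. A gene was called enriched in one of these cell types where its mean CPM (a gene's counts relative to the library total, with TMM factors between libraries) was at least 0.5 and more than 4-fold that in each of the others. Of the identifiers, 1019 were MEC-enriched, 995 adipocyte-enriched and 449 fibroblast-enriched, and 44, 45 and 42 of these did not pass the filter on low counts. No tumor or pad was used to define these sets, although the cells carry the PS mutation and the cultured cells may have changed in culture.

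Tumors and pads separated along the main axis of variation, and 2 tumors lay nearest the pads on that axis. The first principal component of log2 CPM over the 15 libraries held 53.1% of the variance. The tumors lay between 14.6 and 112 on it, and the pads between -112 and -72.4, with no overlap. PS tumor 8 (14.6) and PS tumor 3 (42.7) were the tumors lowest on this component, and they were also the lowest of all libraries on the second component (12.9% of the variance), at -66.1 and -85.5. The second component also parted the pads by set, with pads 10 to 12 between 17.7 and 61.8 and pads 19 to 21 between -38.4 and -4. Tumors correlated with each other less closely than pads did. Spearman's rho across genes had a median of 0.961 over the 36 pairs of tumors and 0.976 over the 15 pairs of pads. Over the 54 pairs of a tumor and a pad it was 0.903. In median rho to the pads PS tumor 8 was the highest tumor (0.913), while PS tumor 3 (0.903) lay below the tumors' median of 0.905. For the places on the 2 components, the main counts are also given without PS tumors 3 and 8 and against each set of pads. Without those tumors 6902 genes were called in place of 6709 (3300 higher, 3602 lower).

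**Figure D1:**
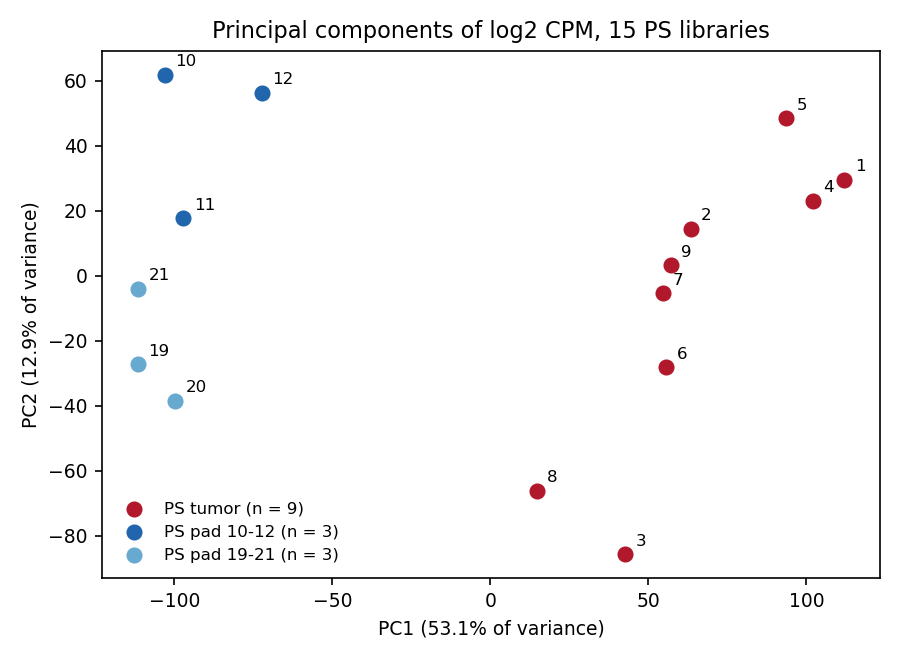
First 2 principal components of log2 CPM for the 9 PS tumors and 6 PS pads, with the percent of variance on each axis. Tumors lie at 14.6 and above on the first component and pads at -72.4 and below; tumors 3 and 8 stand apart from the other tumors on the second.

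Depth ranged from 17.3e6 to 25.5e6 counts in tumors, from 21.0e6 to 24.5e6 in pads 10 to 12 and from 26.3e6 to 32.9e6 in pads 19 to 21. Between 18304 and 19688 genes had at least 1 count. The 10 genes that took the most counts held 6.45% ± 1.32 (SD, n = 9) of all counts in tumors and 12.1% ± 1.81 (SD, n = 6) in pads. Of the 51 pairs of libraries of one group that were compared, none agreed within sampling noise (lowest chi-square per degree of freedom 53.4). No library was thus held in the table under another name as well. The check cannot tell whether libraries came from the same animal, and each library was counted as 1 sample.

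Lower genes changed further than higher genes did. Of 17227 genes tested, 6709 differed between PS tumors and PS pads (38.9%) by edgeR's quasi-likelihood test at a Benjamini-Hochberg adjusted p under 0.05, 3120 of them higher (18.1%) and 3589 lower (20.8%) in tumors. The median log2 fold change was 0.78 among the higher genes and -1.51 among the lower. At a change of at least 4-fold, 530 genes were higher and 1360 lower, and at least 16-fold, 108 were higher and 396 lower. Among the called genes the 9 tumors and 6 pads did not overlap in CPM in 1227 of the higher (39.3%) and 2005 of the lower genes (55.9%), where 3410 of all genes tested did not overlap (19.8%; 7.81% higher and 12% lower in tumors).

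The balance of higher against lower genes depended on the scaling. With library totals alone, 65.7% of 7523 called genes were higher, in place of 46.5%, and the median log2 fold change of all genes moved from 0.01 to 0.23. In a fit of the 15 PS libraries alone 57.4% of 8222 called genes were higher. No gene called in the fit of 38 libraries was called in the opposite direction under any of these settings.

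The lists of genes that took the most counts differed in part between the tissues. Of the 100 genes with the highest mean CPM in pads, 55 were lower and 6 higher in tumors, and 25 of the 100 were adipocyte-enriched, 7 fibroblast-enriched and 5 MEC-enriched. Of the 100 genes with the highest mean CPM in tumors, 28 were higher and 14 lower than in pads, and 14 were MEC-enriched, 8 adipocyte-enriched and 2 fibroblast-enriched. The lists shared 50 genes. Each list was chosen by the level in 1 tissue, which leans its calls toward that tissue, so these counts are descriptions. Over all genes tested, 18.1% were higher and 20.8% lower in tumors. By set, 5.51% of all genes tested were adipocyte-enriched, 5.66% MEC-enriched and 2.36% fibroblast-enriched.

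Genes enriched in adipocytes, the cells that store fat and make up most of the volume of a resting pad, were the set with the largest share of lower genes. Adipocyte-enriched genes took 7.28% to 12.7% of the counts in pads (median 8.56%) and 3.45% to 6.88% in tumors (median 4.45%), and the tissues did not overlap. PS tumor 8 had the highest share among tumors. Of 950 adipocyte-enriched genes tested, 461 were lower in tumors (48.5%), 98 were higher (10.3%) and 391 did not pass. Over all genes tested, 20.8% were lower and 18.1% higher. The median log2 fold change of the set was -1.08, with quartiles of -2.4 and -0.01, beside 0.01 over all genes tested. At 4-fold or more, 297 fell and 27 rose, beside 1360 and 530 of all 17227 genes tested.

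To set tissues beside cells, CPM were scaled over all 80 libraries with TMM factors. The 461 lower adipocyte-enriched genes then had a median of their mean CPM of 26 in pads, 3.51 in tumors and 43.8 in PS adipocytes. In 146 of them the pads stood above the adipocytes, and in 205 when CPM were scaled by library totals alone. The 98 higher genes had medians of 37.7 CPM in tumors, 13.1 in pads and 175 in adipocytes. In 11 of the 98 the tumors stood above the adipocytes, or in 29 with library totals alone, so these counts depend on the scaling between tissue and cells. The median log2 level of the set, taken relative to the mean of the pads, lay between -1.54 (PS tumor 1) and -0.59 (PS tumor 8) in tumors and between -0.23 and 0.25 in pads. PS tumor 3, at -0.68, was next to tumor 8. Without these 2 tumors 496 genes of the set were lower and 88 higher, and the median was -1.31.

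Fibroblast-enriched genes, which mark the cells that make the collagen-rich matrix around the ducts, were also mostly lower where they were called. They took 3.05% to 4.8% of the counts in pads (median 4.02%) and 1.02% to 1.47% in tumors (median 1.29%), with no overlap. Of 407 tested, 167 were lower (41%), 35 were higher (8.6%) and 205 did not pass, beside 20.8% lower and 18.1% higher over all genes. The median log2 fold change was -0.92 (quartiles -2.25 and 0.17). Scaled over all 80 libraries with TMM factors, the lower genes had medians of 9 CPM in pads, 1.32 in tumors and 19.4 in PS fibroblasts. The 35 higher genes had medians of 3.96 CPM in pads, and of 22.3 in both tumors and fibroblasts. With library totals alone these were 4.46 in pads, 28.9 in tumors and 16.9 in fibroblasts, so the equality depends on the scaling. Relative to the mean of the pads, the median log2 level of the set was between -1.53 and -0.78 in the 9 tumors, against -0.15 to 0.22 in the 6 pads. Without PS tumors 3 and 8 there were 171 lower and 34 higher genes.

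MEC-enriched genes moved the other way. They took 2.54% to 4.56% of the counts in pads (median 4.05%) and 6.4% to 9.36% in tumors (median 7.75%), and every tumor exceeded every pad. Of 975 tested, 288 were higher (29.5%), 51 were lower (5.23%) and 636 did not pass, beside 18.1% higher and 20.8% lower over all genes. The median log2 fold change of the set was 1.01 (quartiles 0.07 and 1.66). The set's median log2 level relative to the pads ranged from 0.59 (PS tumor 3) to 0.9 over the tumors, and from -0.21 to 0.29 over the pads.

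On the scale over all 80 libraries, the 288 higher MEC-enriched genes had medians of 22.2 CPM in tumors, 5.08 in pads and 15.7 in PS MECs. The tumor mean exceeded the MEC mean in 184 of them, and in 200 with library totals alone. The 51 lower genes had medians of 7.63 CPM in pads and 5.98 in MECs, with a median in tumors below both. In 26 of these the pad mean exceeded the MEC mean, and in 28 with library totals alone. The tumors were whole tissue and the MECs were cultured, so tissue and culture cannot be told apart in this comparison. Without PS tumors 3 and 8, 277 of the set were higher and 53 lower. The count of higher genes was 505 in the fit of the 15 PS libraries alone, and 70 against pads 10 to 12 and 136 against pads 19 to 21 with the pads split in the fit.

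**Figure D2:**
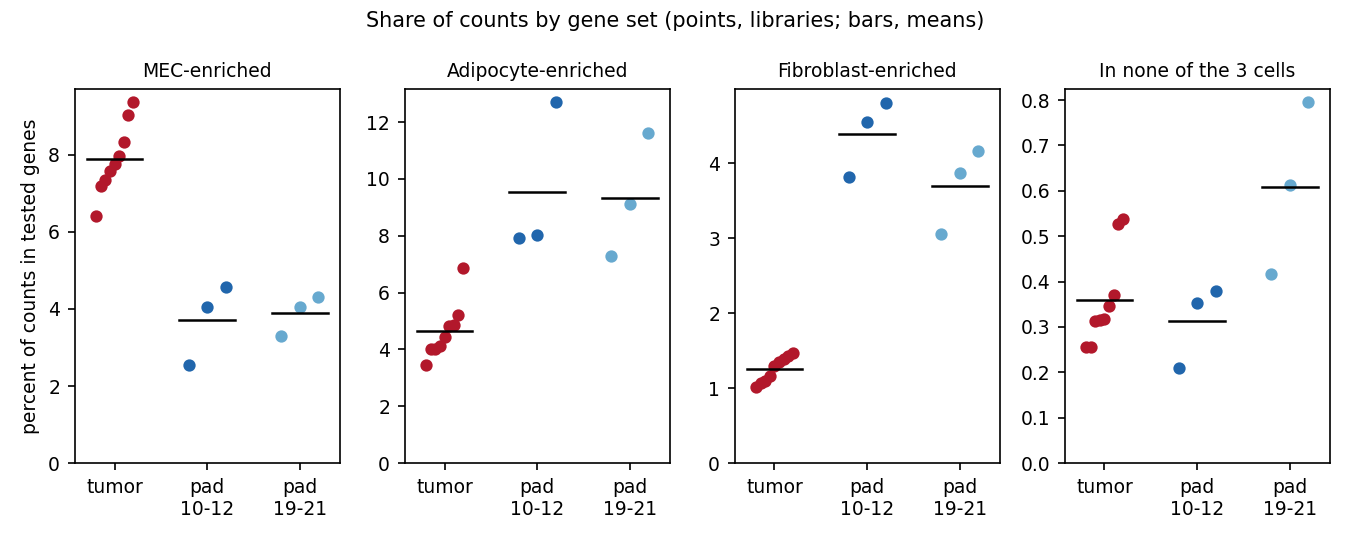
Share of each library's counts, as percent of counts in tested genes, taken by MEC-enriched, adipocyte-enriched and fibroblast-enriched genes. A further panel shows genes under 0.5 CPM in all 3 PS cell types, where tumors and pads overlap. Each point is 1 library and bars are means. Tumors and pads do not overlap in any of the 3 enriched sets. Their medians are 7.75% against 4.05% for MEC-enriched, 4.45% against 8.56% for adipocyte-enriched and 1.29% against 4.02% for fibroblast-enriched genes.

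The set medians kept their direction under other definitions of the sets and another scaling. With sets defined from wildtype cells, the median log2 fold changes were 1.12 for 849 MEC-enriched genes, -1.13 for 1059 adipocyte-enriched genes and -0.97 for 311 fibroblast-enriched genes. With a 2-fold rule they were 0.56, -0.62 and -0.53, and with an 8-fold rule 1.18, -1.49 and -1.16. With library totals alone they were 1.21, -0.87 and -0.72, beside 0.23 over all genes. Relative to all genes they were then 0.98, -1.09 and -0.94, against 1, -1.09 and -0.93 with TMM scaling. A change of scaling moves all genes by nearly the same amount, so the relative values could hardly differ.

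Most genes were enriched in no cell type. Of 12153 genes read in at least 1 PS cell type without such enrichment, 2273 were higher (18.7%) and 2417 lower (19.9%), close to the shares over all genes, and the median log2 fold change was 0.01. When every gene read in the cells was instead assigned to the cell type with the highest mean, 43% of the genes lower in tumors were highest in adipocytes, beside 31% of all genes tested. By the same assignment 37.7% of the higher genes were highest in MECs, beside 25.8% of all genes tested.

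A further 18222 identifiers had means under 0.5 CPM in all 3 PS cell types, called not read in the cells here, and only 2742 of them passed the filter on low counts. Of these 426 were higher and 493 lower in tumors. The lower ones had medians of 1.02 CPM in pads and 0.095 in tumors, and the higher ones 0.171 in pads and 0.756 in tumors, so most were read at low levels in both tissues. The set took 0.209% to 0.795% of the counts in pads and 0.257% to 0.539% in tumors, and the tissues overlapped. A gene of this set could pass the filter through the tissue where it is high, so nothing is read from the counts of its called genes.

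**Figure D3:**
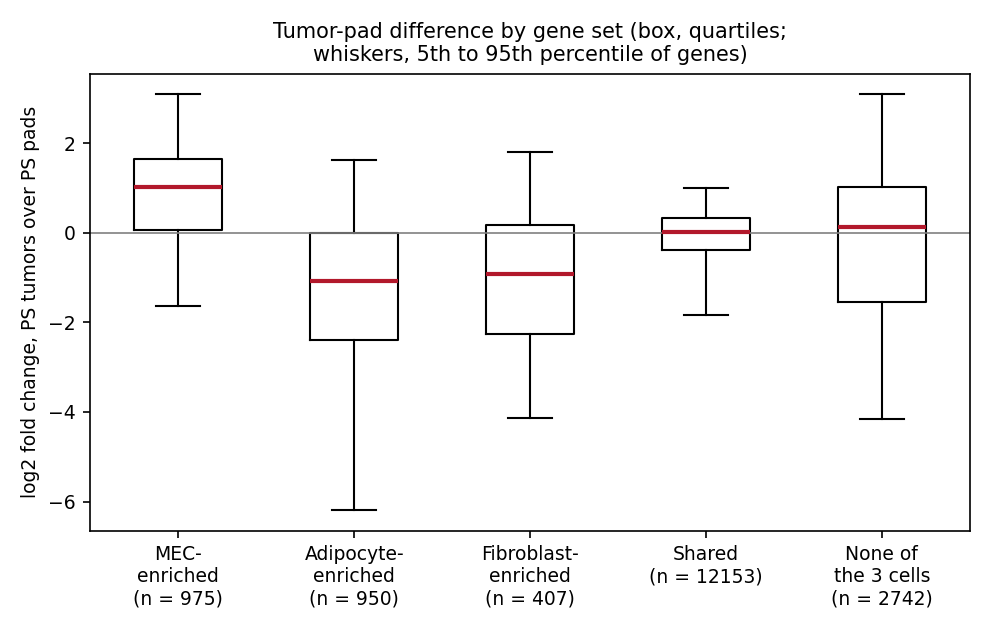
Distribution of the log2 fold change of PS tumors over PS pads by gene set. The median is 1.01 for MEC-enriched, -1.08 for adipocyte-enriched and -0.92 for fibroblast-enriched genes, and near 0 for the genes enriched in no cell type (0.01) and those not read in the cells (0.13).

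Few genes were read in all libraries of one tissue and nearly absent from the other. In 30 genes every pad had at least 1 CPM and the tumors a mean under 0.1 CPM; 12 of them were not read in the 3 PS cell types, 9 were adipocyte-enriched, 5 were read in the cells with no enrichment, 3 were fibroblast-enriched and 1 was MEC-enriched. The reverse, at least 1 CPM in every tumor and a mean under 0.1 CPM in pads, held for 2 genes, 1 of them MEC-enriched and 1 not read in the cells. It held for 7 genes when 5 of the 9 tumors were enough, a looser demand than that made of the pads.

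The tumors were also tested against each set of pads. With the 2 sets as separate groups of the fit, tumors differed from pads 10 to 12 in 3798 genes (22%; 1451 higher, 2347 lower) and from pads 19 to 21 in 4265 genes (24.8%; 1731 higher, 2534 lower). In 2628 genes the tumors differed from both sets in the same direction (946 higher, 1682 lower), and in 1 gene in opposite directions, where both comparisons use the same 9 tumors. The median log2 fold changes against the first and second set were 0.95 and 1.07 for MEC-enriched, -0.84 and -1.12 for adipocyte-enriched, and -0.88 and -0.84 for fibroblast-enriched genes. Between the sets themselves 0 PS pad genes differed by edgeR in the fit of tumors and pads, with 747 at an unadjusted p under 0.05. In a fit of all 21 pads of the series, 165 of 16384 genes differed (1.01%), and 57 of those (34.5%) were also called between tumors and pads, near the 38.9% called over all genes tested.

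The 2 higher and the 2 lower identifiers with the smallest p are described gene by gene, without symbols, and none belongs to an enriched set. ENSRNOG00000002520 had 212, 240 and 376 CPM as the lowest, median and highest of the 9 tumors, and 94.4, 104 and 126 CPM in the 6 pads. Every tumor stood above every pad, and PS tumor 8 was the highest. The tumor mean was 255 ± 47.5 CPM (SD, n = 9) and the pad mean 107 ± 10.8 (SD, n = 6), a log2 fold change of 1.26 ± 0.14 (SE; edgeR adjusted p = 4.81e-07). The gene was read in all 3 PS cell types. Scaled over all 80 libraries MECs had a mean CPM of 205 ± 11, adipocytes of 314 ± 18.7 and fibroblasts of 228 ± 16.3 (SD, n = 3 each), against 220 ± 41 (SD, n = 9) in tumors and 91.2 ± 8.81 (SD, n = 6) in pads, so the whole pad was lower than each of the 3 cell types taken from such tissue.

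ENSRNOG00000000661 had 38.1, 55.2 and 65.2 CPM in tumors and 22.4, 24 and 26.2 CPM in pads (lowest, median, highest). The groups did not overlap, and the pads lay close together while the tumors spread. The means were 53 ± 9.95 (SD, n = 9) and 24 ± 1.5 (SD, n = 6), and the log2 fold change was 1.14 ± 0.13 (SE; edgeR adjusted p = 9.86e-07). It was the same against each set of pads, at 1.14.

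ENSRNOG00000019183 was the gene with the smallest p in the comparison. It had 14.1, 21.2 and 48.4 CPM in pads, with PS pad 21 the highest, and 0.24, 1.04 and 2.19 CPM in tumors (lowest, median, highest). The highest tumor was below the lowest pad, and behind these values stood 312 to 1415 counts per pad and 6 to 55 counts per tumor. The log2 fold change was -4.43 ± 0.44 (SE; edgeR adjusted p = 1.3e-07). On the scale over all 80 libraries the mean CPM lay between 0.478 (MECs) and 0.672 (fibroblasts) in the 3 PS cell types, against 21.2 in PS pads, so none of the 3 cell types carried it at the level of the pad.

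ENSRNOG00000008217 had 42 to 98 counts in each pad and no count in 6 of the 9 tumors. Its CPM was 1.54, 2.02 and 4.07 in pads, and 0, 0 and 0.135 in tumors (lowest, median, highest). The pads held 362 counts together and the tumors 5, a ratio of 102 between pads and tumors, relative to their total counts, with an exact 95% interval from 43.4 to 317 that covers counting error only. The edgeR adjusted p was 4.28e-07. Its mean was under 0.1 CPM in each of the PS MECs, adipocytes and fibroblasts. All 4 identifiers kept their direction and their call in 100 of 100 other fits. They were chosen for the smallest p in this comparison and the other fits reuse its libraries, so this result was nearly fixed by the choice.

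**Figure D4:**
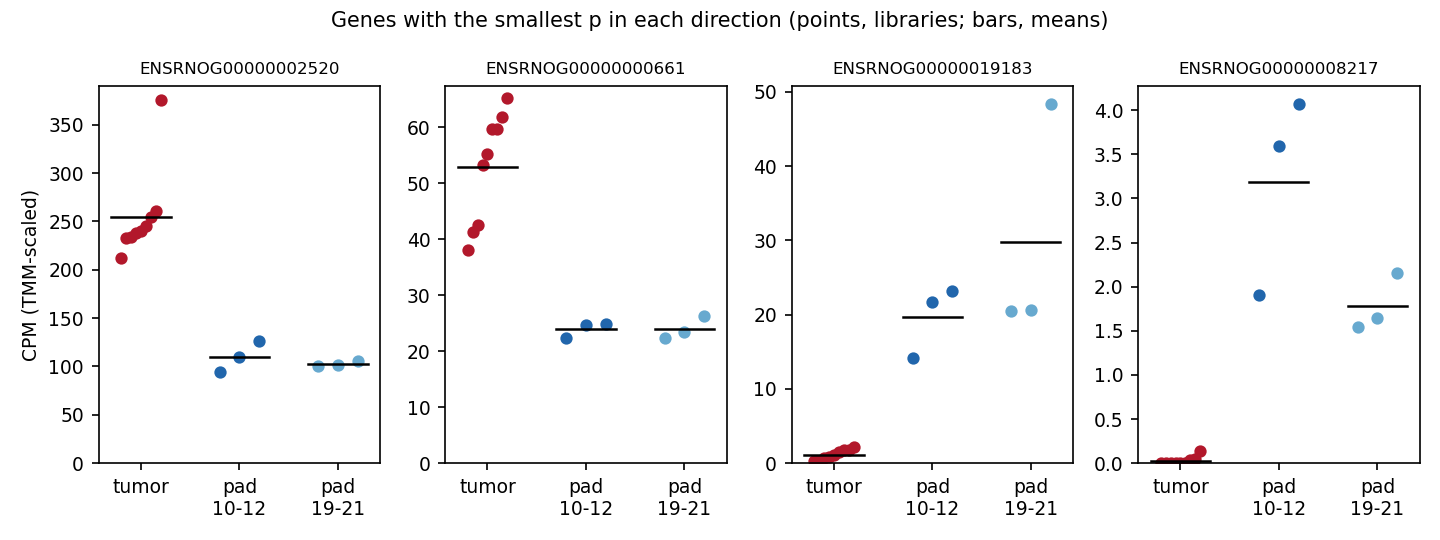
CPM per library of the 4 printed identifiers in PS tumors and PS pads. In all 4 the tumors and pads do not overlap: ENSRNOG00000002520 and ENSRNOG00000000661 are higher in every tumor, and ENSRNOG00000019183 and ENSRNOG00000008217 are lower in every tumor, the last with 6 tumors at 0.

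The tumors differed from each other more than the pads did. The median SD of log2 CPM was 0.4 over the 9 tumors and 0.27 over the 6 pads, and the SD was larger in tumors for 12701 of 17227 genes (73.7%). The 3 enriched sets had a median SD in tumors of 0.82 for MEC-enriched, 0.77 for adipocyte-enriched and 0.87 for fibroblast-enriched genes, against 0.28 for genes read in the cells without enrichment. In pads the medians were 0.45, 0.53, 0.47 and 0.19. Of 11425 genes with at least 10 CPM in 1 or more tumors, 682 spanned at least 16-fold over the tumors (5.97%). These made up 28.4% of the fibroblast-enriched, 21.9% of the MEC-enriched, 17.3% of the adipocyte-enriched and 2.38% of the genes without enrichment, and 145 of the 189 genes not read in the cells. Of the 682, 280 were called between tumors and pads (41.1%), near the 38.9% over all genes tested.

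Most genes that were high in a single tumor were high in PS tumor 3 or PS tumor 8. In 163 of the 682 genes 1 tumor stood at least 4-fold above the next, and this was tumor 3 in 68 genes, tumor 8 in 61, tumor 7 in 13 and another tumor in the rest. The 68 genes had a median of 29.3 CPM in tumor 3 and between 0.787 and 2.73 CPM in the other tumors. They included 37 genes not read in the 3 PS cell types and 14 that were adipocyte-enriched.

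The genes high in tumor 3 alone were also read in pads, and mostly in the second set. Their median was 42.8, 50.9 and 20.3 CPM in pads 19, 20 and 21, and 0.746, 11.2 and 1.08 CPM in pads 10, 11 and 12. In 67 of the 68 the pads had a mean of at least 1 CPM. In tumors 37 were called lower and 0 higher, beside 20.8% lower and 18.1% higher over all genes tested. The choice of the genes did not use the pads, but it sets their low level in the other tumors. It thereby leans the calls toward lower, so nothing is read from these calls.

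The 61 genes of tumor 8 were of another kind. Their median was 25.5 CPM in tumor 8, 0.764 to 2.67 CPM in the other tumors and 8.85 to 15.9 CPM in pads. In the comparison 24 were called lower and 12 higher in tumors, and here too the choice of genes leans the calls toward lower. Of them 17 were adipocyte-enriched, with a median of 32.2 CPM in tumor 8 against 515 CPM in pads, and 13 were MEC-enriched, with 18.9 CPM against 1.11 CPM in pads. Tumor 8 was thus below the pads in the first group and above them in the second, while its place above the other tumors is set by the choice of genes.

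**Figure D5:**
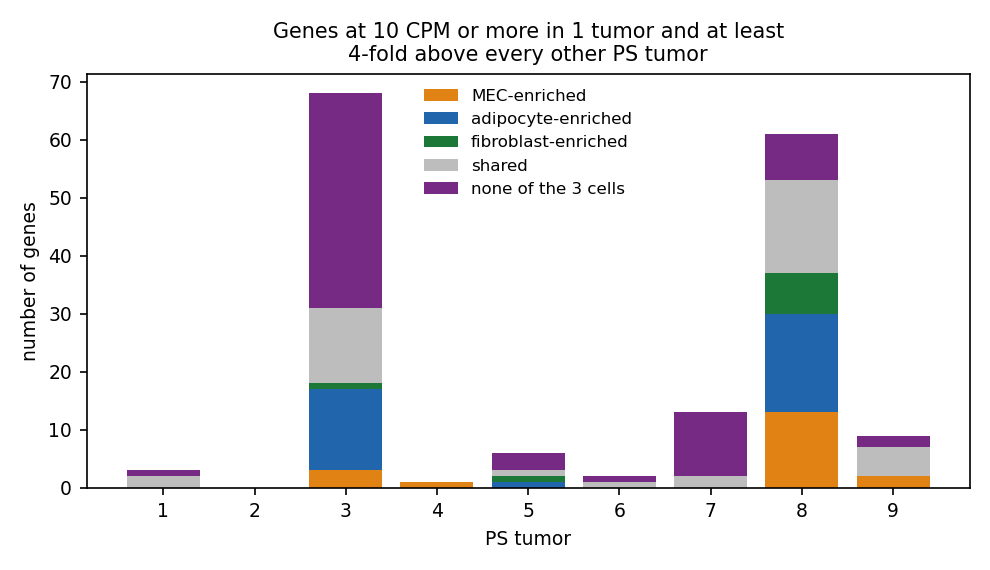
Number of genes high in a single PS tumor, at least 4-fold above every other PS tumor, for each tumor and coloured by gene set. PS tumor 3 has 68 such genes, 37 of them not read in the 3 PS cell types. PS tumor 8 has 61, of which 17 are adipocyte-enriched and 13 MEC-enriched.

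Tumors of the other lines were set against their own pads in the same fit, and the difference between lines was tested gene by gene as an interaction. The change in PS differed from that in IF in 62 genes (0.36%), 54 of them with a lower and 8 with a higher fold change in PS. All 3 IF pads have title numbers from 1 to 12, while PS pads come from both sets. Line and pad set are therefore partly mixed in this test, and with only pads 1 to 12 of the series 7 genes differed. The 54 genes had a median log2 fold change of -0.45 in PS, 1.77 in IF and -0.24 in IFPS. Of them 48 were called higher in IF tumors and 21 called lower in PS tumors. The median of their mean CPM was 61.6 in IF tumors, 15 in PS tumors and 15 in IFPS tumors, against 16.1 in IF pads and 21.9 in PS pads, which describes genes chosen for this difference. Single IF tumors led many of them, as IF tumor 2 was the highest IF tumor in 27 of the 54 and IF tumor 4 in 12. By gene set, 35 were read in the cells with no enrichment, 11 were not read in them, 5 were MEC-enriched, 2 adipocyte-enriched and 1 fibroblast-enriched. In the same order these sets held 70.5%, 15.9%, 5.66%, 5.51% and 2.36% of all genes tested. The 8 other genes had a median log2 fold change of 2.08 in PS and -1.13 in IF. By edgeR the count was 0 without IF pad replicate 1, 2 or 3 in turn, also when the same 17227 genes were tested (then 1205 to 1316 at an unadjusted p under 0.05), and 95 without IF tumor replicate 5.

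Between PS and IFPS no gene's change differed (0%) by edgeR, while 2364 had an unadjusted p under 0.05 and DESeq2 called 246. The 4 printed identifiers differed in neither interaction (edgeR adjusted p from 0.179 to 0.947). Their log2 fold changes in IF and IFPS were 1.13 and 0.97 for ENSRNOG00000002520, 0.91 and 0.44 for ENSRNOG00000000661, -5.25 and -3.27 for ENSRNOG00000019183, and -3.7 and -6.2 for ENSRNOG00000008217.

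The medians of the 3 enriched sets had the same sign in IF as in PS, and in IFPS the median of the fibroblast-enriched genes was near 0. The median log2 fold change of MEC-enriched genes was 1.01 in PS, 0.94 in IF and 0.62 in IFPS. For adipocyte-enriched genes it was -1.08, -1.25 and -0.42, and for fibroblast-enriched genes -0.92, -0.89 and 0.04. These medians are descriptions, and the differences between lines were tested only per gene. Of the 3120 genes higher in PS tumors, 2911 had an estimate of the same sign in IF (93.3%) and 3034 in IFPS (97.2%), and of the 3589 lower genes 3306 (92.1%) and 3106 (86.5%). Over all genes tested these shares were 79.2% in IF and 76.9% in IFPS. The genes were chosen for their change in PS, and the 3 comparisons use different tumors and pads.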

How the data were processed

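RNA of tumors and whole pads was extracted with Trizol from fresh tissue, and libraries of mRNA were sequenced as paired ends, per the labels' protocols. The submitters' processing notes name Trim Galore, STAR 2.5.2b and the genome build Rnor_6.0. The counting tool and its strand setting are not given in the sources used here, so genes that overlap, or share reads with a near-identical copy or an antisense gene, are uncertain. The values are counts of reads per identifier, not normalized, and were used as the authors deposited them. Columns were assigned to libraries through the titles, and libraries of a group were numbered in accession order; pads are called by their title number.

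Counts of the 38 tumors and pads of IF, PS and IFPS were fitted together with edgeR 4.0.16 in R 4.3.3 (6 groups, no covariate, TMM scaling, filterByExpr, quasi-likelihood test, Benjamini-Hochberg adjustment), and genes were called at an adjusted p under 0.05. Log2 CPM used a prior count of 2. In simulated counts of 16998 genes, 100 genes were changed 2-fold and 100 were changed 4-fold in PS tumors alone, as often up as down. For PS tumors against PS pads the design then recovered 54% of 2-fold and 84% of 4-fold changes, and 4.17% of its calls were false. In the real comparison 38.9% of genes were called, so these shares hold for the simulated setting and not for that comparison.

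The rule for named genes asked for genes with a symbol; with none matched it gave at most 2 identifiers that rose and 2 that fell, by the smallest p. The 28 gene lists drawn up by symbol, the cell type markers among them, were not analysed here. The members, gene sets and lists were chosen with earlier results of these data known. Alternatives were RLE size factors, library totals alone, no filter, DESeq2 1.42.0, 1 set of pads, only the lines compared, no adipocyte-enriched genes and each library left out. Added after seeing the data were thinned counts, pads split by set, PS tumors 3 and 8 left out, other definitions of the gene sets, IF libraries left out, IF pads also with the same genes tested, and 1 scale over all 80 libraries for tissues and cells.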

Additional observations from a re-analysis of the deposited data

Results flagged for a closer look

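In 36 checks, each of 1 measure in the 9 PS tumors or in the 6 PS pads, the highest and lowest library were compared with the rest by Dixon's test. In 5 checks a library stood apart. A few such libraries are to be expected by chance from that many checks. PS tumor 3 was the highest tumor for the median level of genes not read in the PS cells, at 0.31 (log2, relative to the pads). PS tumor 8 was the highest for ENSRNOG00000002520, at 376 CPM, and PS tumor 1 for ENSRNOG00000008217, at 0.135 CPM. Among pads, PS pad 12 lay nearest the tumors on the first principal component, at -72.4, and PS pad 21 was the highest for ENSRNOG00000019183, at 48.4 CPM.

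The change from pad to tumor differed between PS and IF in 62 genes by the interaction test of edgeR.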

How the results depend on the processing

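The comparison of PS tumors with PS pads gave 3079 called genes with only pads 1 to 12 of the series, 2860 with only pads 13 to 21, and 3798 and 4265 against each set with the pads split in the fit. The smaller pad groups hold 3 PS pads each. Leaving out 1 library gave 5713 (without PS pad 10) to 6889 (without PS tumor 3). In the alternatives other than the split of pads, 0 of the 6709 genes changed direction and stayed called. With the pads split, 6672 of the 6709 kept the sign of their estimate against each set. In that fit 1 gene was called in opposite directions against the 2 sets. The interaction with IF, 62 genes, gave 22 with library totals alone, 29 with no filter on low counts, 255 with DESeq2, 7 with only pads 1 to 12 and 187 with only the lines compared. Leaving out 1 library moved it from 0 (any IF pad) to 95 (IF tumor 5); it was 21 without PS pad 11. The interaction with IFPS gave 246 genes with DESeq2 and 0 with each PS library left out. MEC-enriched genes called higher numbered 40 with only pads 1 to 12 and 72 with only pads 13 to 21, where 279 adipocyte-enriched and 86 fibroblast-enriched genes were lower. Each cause was not tested. No paired analysis was possible because PS tumors and PS pads share no number in their titles. Depth limits genes near 0, such as ENSRNOG00000008217 with 5 counts in all tumors, whose fitted fold change depends on the prior count.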

Other observations

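Both printed identifiers that fell in PS tumors had higher values in IF adipocytes than in the adipocytes of the other lines. Scaled over all 80 libraries, ENSRNOG00000019183 was at 3.06, 11.6 and 12 CPM in the 3 IF adipocyte libraries, and at 0.351 to 0.838 CPM in PS and 0.232 to 0.458 CPM in IFPS adipocytes. Wildtype adipocytes had 0.636 to 0.96 CPM. ENSRNOG00000008217 was at 1.79, 2.13 and 3.78 CPM in IF adipocytes, near the 1.32 to 3.45 CPM of PS pads, and at 0.0396 to 0.157 CPM in PS, 0.0464 to 0.263 CPM in IFPS and 0.24 to 0.594 CPM in wildtype adipocytes. In both genes the 3 IF adipocyte libraries stood above all other adipocyte libraries.

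PS tumor 7 alone was high for 13 genes, 11 of them not read in the 3 PS cell types. Their median was 59.4 CPM in tumor 7, 0.044 to 0.54 CPM in the other tumors and 0.215 to 0.348 CPM in the pads.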
